A study of Mus musculus with 5 samples.

Results

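The miR-23, miR-27 and miR-24 clusters were followed through mouse liver development in Ago HITS-CLIP data, in which ultraviolet light fixes RNA to the Ago proteins and the bound miRNAs and mRNA fragments are sequenced together. The 5 members were mmu-miR-23a-3p, mmu-miR-23b-3p, mmu-miR-27a-3p, mmu-miR-27b-3p and mmu-miR-24-3p, written below without the species prefix, out of 995 miRNAs named in the tables. They were picked by name, as the miRNAs of both genomic clusters, with earlier results of these data known. Entries that named a member were grouped by seed and collapsed to positions, which gave 17782 sites of 1764811 sites of all seeds, namely 3974 for miR-23, 9500 for miR-27 and 4308 for miR-24. C57BL/6 livers were taken at 3 embryonic ages in days (e12.5, e15.5 and e18.5), at postnatal day 7 (P7) and from adults of 6 to 8 weeks, with no other genotype or treatment. The tissue was homogenized and exposed 3 times to 254 nm light at 0.2 J/cm2. Ago2 antibodies were used at the embryonic stages, and Ago1 antibodies were used in addition for P7 and adult liver, so antibody and birth cannot be told apart. Values said to be in stage order run from e12.5 through the later embryonic stages and P7 to adult. Each stage had 1 table of miRNA-target interactions, called a library here. The labels name no replicate of any stage, so every difference below is between 2 libraries. A second sample of the last embryonic stage, which the supplement lists, is not analysed here as a library of its own. Whether the deposited table of that stage includes it is not given in the sources used here. Whole livers also hold blood-forming, endothelial and other cells besides hepatocytes.

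MiRNAs guide Ago to mRNAs mainly through their seed, the bases at positions 2 to 8 from the 5′ end, and the bound mRNA is then translated less or degraded. In mammals the miR-23, miR-27 and miR-24 genes lie side by side, and each set is transcribed as 1 precursor RNA, so the members share a promoter but not a seed. MiR-27 is known as a regulator of lipid metabolism and fat cell differentiation, miR-23 of glutamine use and TGF-beta signalling, and miR-24 of cell cycle and DNA repair genes.

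The mature sequences, with the seed in capitals, show which members can share target sites. They were read from the interaction tables and located in the RefSeq hairpins on GRCm38, where RefSeq lists 4 of the 5 mature forms by name.
mmu-miR-23a-3p, chr8:84208563-84208583 (+): aTCACATTgccagggatttcc
mmu-miR-23b-3p, chr13:63300529-63300549 (+): aTCACATTgccagggattacc
mmu-miR-27a-3p, chr8:84208727-84208747 (+): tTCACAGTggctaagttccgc
mmu-miR-27b-3p, chr13:63300760-63300780 (+): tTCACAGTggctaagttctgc
mmu-miR-24-3p, chr8:84208875-84208896 and chr13:63301251-63301272 (+): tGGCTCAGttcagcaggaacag

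The a and b forms of miR-23 differ by the substitution T19A and those of miR-27 by C19T, counted from the 5′ end, so each pair has 1 seed. Within the first 8 bases, miR-27 differs from miR-23 by A1T and T7G, and the 2 seeds are otherwise the same. The 3 hairpins of Mir23a, Mir27a and Mir24-2 span 404 bases on chromosome 8 (84208518 to 84208921). The annotation places no protein-coding gene there, and the long noncoding RNA gene Gm26532 starts at the last bases of the span. The 3 hairpins of Mir23b, Mir27b and Mir24-1 span 792 bases on chromosome 13 (63300484 to 63301275), inside the protein-coding gene 2010111I01Rik on the same strand and opposite to Fancc. Mir27b lies within an annotated exon of a 2010111I01Rik transcript (63300605 to 63300793), Mir24-1 overlaps annotated exons, and Mir23b lies in an intron of it. Because miR-24-3p is made from both loci with the same sequence, its reads could not be assigned to a locus.

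The 5 members together held 0.808%, 1.22%, 1.47%, 1.31% and 3.49% of the miRNA reads in stage order. MiR-27b-3p (mmu-miR-27b-3p) was the most abundant member in every library. It held 0.288%, 0.445%, 0.650%, 0.841% and 2.14% of the miRNA reads in stage order, and moved from rank 38 of 745 miRNAs to rank 10 of 585. MiR-27a-3p (mmu-miR-27a-3p) held 0.200%, 0.376%, 0.450%, 0.210% and 0.734% in the same order. Its share was lower at P7 than at e15.5 and e18.5, whereas that of miR-27b-3p was highest after birth.

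MiR-23b-3p (mmu-miR-23b-3p) held 0.119%, 0.142%, 0.132%, 0.126% and 0.373% of the miRNA reads from e12.5 to adult, and was nearly level until P7. MiR-23a-3p (mmu-miR-23a-3p) held 0.140%, 0.176%, 0.160%, 0.0955% and 0.178%, with its lowest share at P7. MiR-24-3p (mmu-miR-24-3p) was the least abundant member in every library, with 0.0617%, 0.0841%, 0.0825%, 0.0374% and 0.0630%. Counting error was small, with Wilson 95% intervals of 0.645% to 0.656% for miR-27b-3p at e18.5 and 2.13% to 2.14% in adult liver. The spread between the 2 lists that make up each embryonic table was far larger. At e15.5, miR-27a-3p held 0.0904% in the first list and 0.471% in the second, and miR-23a-3p 0.0333% and 0.223%. For miR-23a-3p, miR-23b-3p, miR-27a-3p and miR-24-3p, the ranges spanned by the 2 lists overlap between the 3 embryonic stages. The adult share of miR-27b-3p (2.14%), of miR-27a-3p (0.734%) and of miR-23b-3p (0.373%) lay above both lists of each embryonic table. At P7, miR-27a-3p (0.210%) lay above the first e15.5 list (0.0904%) and the second e18.5 list (0.188%). MiR-23a-3p at P7 (0.0955%) lay above the same lists (0.0333% and 0.0662%). The lower P7 shares of miR-27a-3p and miR-23a-3p thus depend on the list.

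**Figure D1:**
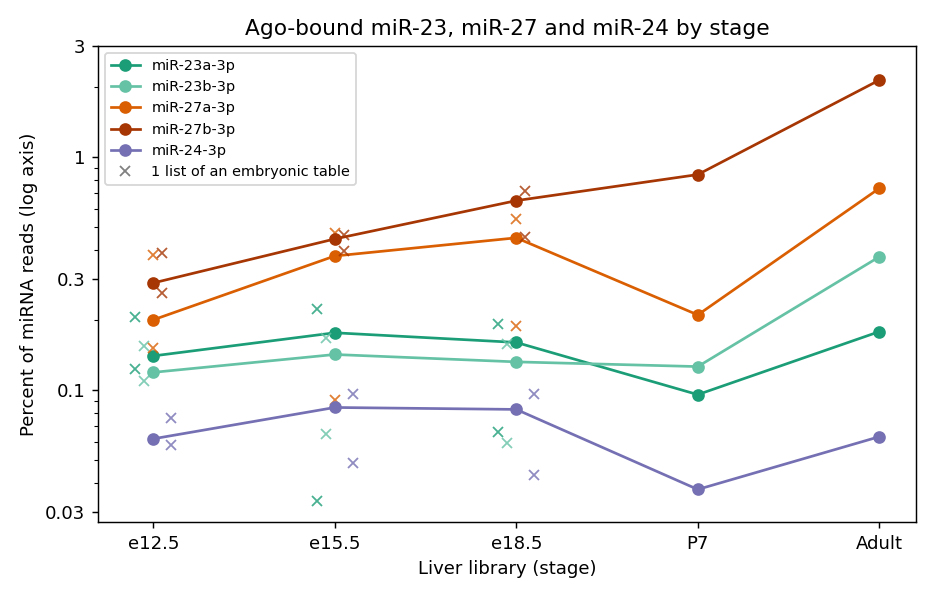
Share of the miRNA reads of each library (percent, log axis) held by each of the 5 members at each stage, with crosses for the 2 separate lists of each embryonic table. MiR-27b-3p was highest throughout, from 0.288% to 2.14%, and the lists of 1 embryonic table differ by more than most of the steps between stages.

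Between e12.5 and adult liver, the log2 difference in share was 2.89 for miR-27b-3p, 1.88 for miR-27a-3p, 1.65 for miR-23b-3p, 0.35 for miR-23a-3p and 0.03 for miR-24-3p, against a median of -1.81 over 255 miRNAs with at least 100 rpm (reads scaled to 1e6 miRNA reads) in 1 library. These shares depend on the other miRNAs of the library. Relative to the total sequenced reads of each library, the differences were larger, at 3.89 for miR-27b-3p, 2.87 for miR-27a-3p, 2.65 for miR-23b-3p, 1.34 for miR-23a-3p and 1.03 for miR-24-3p. With the first list of e12.5 alone, miR-27a-3p stood at 0.95, and miR-23a-3p and miR-24-3p turned to -0.20 and -0.27. MiR-142a-3p, a miRNA of blood cells, went from 32.2% at e12.5 to 4.34% in adult liver, and miR-144-3p, an erythroid miRNA, from 21.7% to 1.54%. With these and the erythroid miR-451a left out of the total, an alternative chosen after seeing the data, the log2 difference was 1.64 for miR-27b-3p, 0.62 for miR-27a-3p and 0.40 for miR-23b-3p, and it turned to -0.91 for miR-23a-3p and to -1.23 for miR-24-3p. In bulk tissue, fewer cells of a type and less RNA per cell cannot be told apart.

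Ratios between members do not depend on the total. MiR-27a-3p and miR-27b-3p together had 7.90, 9.77, 13.3, 28.1 and 45.6 times the reads of miR-24-3p in stage order. The separate embryonic lists ranged from 7.12 to 14.8, so the ratio after birth lay above all embryonic lists. The reads of miR-23a-3p and miR-23b-3p stood at 4.20, 3.78, 3.54, 5.92 and 8.75 times those of miR-24-3p. MiR-27b-3p had 1.44, 1.18, 1.44, 4.01 and 2.91 times the reads of miR-27a-3p from e12.5 to adult. The 2 lists of e15.5 alone gave 4.38 and 0.980 for this ratio, a wider span than that of the 5 joint values. MiR-23b-3p had 0.847, 0.804 and 0.829 times the reads of miR-23a-3p in the embryo, 1.32 times at P7 and 2.09 times in adult liver, while the e15.5 lists gave 1.95 and 0.748. The order of the chromosome 13 and chromosome 8 forms therefore cannot be separated from the spread between lists, except that the adult miR-23 ratio (2.09) lay above every list.

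Likeness of profile was measured as the root mean square difference of the centred log2(rpm + 1) values over the 5 libraries. Among 250 miRNAs outside the group, the nearest to miR-27b-3p was miR-126a-3p, an endothelial miRNA, at 0.21, which held 1.25% of the miRNA reads at e18.5, 1.28% at P7 and 5.05% in the adult library. The nearest to miR-23a-3p was let-7a-5p at 0.17, and miR-24-3p lay at 0.20 from miR-23a-3p. The nearest to miR-23b-3p was miR-26a-5p at 0.38 and the nearest to miR-27a-3p was miR-22-3p at 0.41. MiR-27b-3p and miR-24-3p were the least alike pair of members, at 1.15. The libraries also changed in cell markers, given as reads of their Ago clusters scaled to 1e6 summed cluster reads of the library. The 5 hepatocyte markers Alb, Apoa1, Ttr, Serpina1a and Fgb were listed in each library and their sum went from 533 at e12.5 to 7579 in adult liver. The 5 erythroid markers Hba-a1, Hbb-bt, Hbb-bs, Alas2 and Slc4a1 went from 35775 to 883, with Slc4a1 at 0 in the adult library. The 4 endothelial markers Kdr, Pecam1, Cdh5 and Stab2 went from 11.7 to 151. The part of these cell types in the member shares was not tested.

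A site is a match to the seed inside an Ago cluster, a group of overlapping reads. A 6mer pairs with miRNA bases 2 to 7, a 7mer-m8 with bases 2 to 8, a 7mer-A1 is a 6mer with an A opposite base 1, and an 8mer has both additions. The members had 8113, 3862, 3290, 5656 and 4124 sites in stage order. Most positions were listed at 1 stage only, namely 75.2% for miR-23, 72.6% for miR-27 and 78.8% for miR-24. Sites listed in all 5 libraries numbered 44, 170 and 23. By region, 24.8% of the member sites lay in a 3′UTR, 36.3% in coding sequence (CDS), 2.32% in a 5′UTR and 24.2% in introns, with 3′UTR shares of 26.0%, 24.5% and 24.5% for miR-23, miR-27 and miR-24. The 5′UTR shares were further apart, at 1.31% for miR-23 (Wilson 95% interval 0.999 to 1.71), 2.15% for miR-27 (1.87 to 2.46) and 3.64% for miR-24 (3.12 to 4.25), with intervals that did not overlap. These intervals cover counting error only. Over all seeds the 5′UTR share in a library was between 2.51% and 3.39%. Within each library the 3′UTR share of each of the 3 seeds lay above that of all seeds. At P7 it was 29.2%, 29.7% and 31.4% for miR-23, miR-27 and miR-24 against 25.4%, and in adult liver 23.1%, 21.9% and 24.1% against 19.6%. The smallest gaps were at e12.5, where miR-24 had 23.3% against 22.8%, and at e15.5, where miR-27 had 26.1% against 25.5%, and no test of these gaps was made.

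Of the clusters with any site in a 3′UTR, 1.13%, 1.42%, 1.31%, 1.12% and 1.37% held a miR-23 site in stage order. For miR-27 the shares were 2.75%, 3.30%, 3.03%, 3.22% and 3.09%, which placed its seed between rank 5 and rank 10 of all seed families. For miR-24 they were 1.19%, 1.12%, 1.16%, 1.39% and 1.42%. In CDS clusters the shares were 1.07%, 1.25%, 1.11%, 0.982% and 1.25% for miR-23, 2.46%, 3.07%, 2.80%, 2.65% and 2.97% for miR-27, and 1.11%, 0.972%, 1.08%, 1.12% and 1.29% for miR-24. The shares of sites thus stayed within a narrow range in both regions, while the share of miRNA reads held by miR-27b-3p differed far more between the same libraries.

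**Figure D2:**
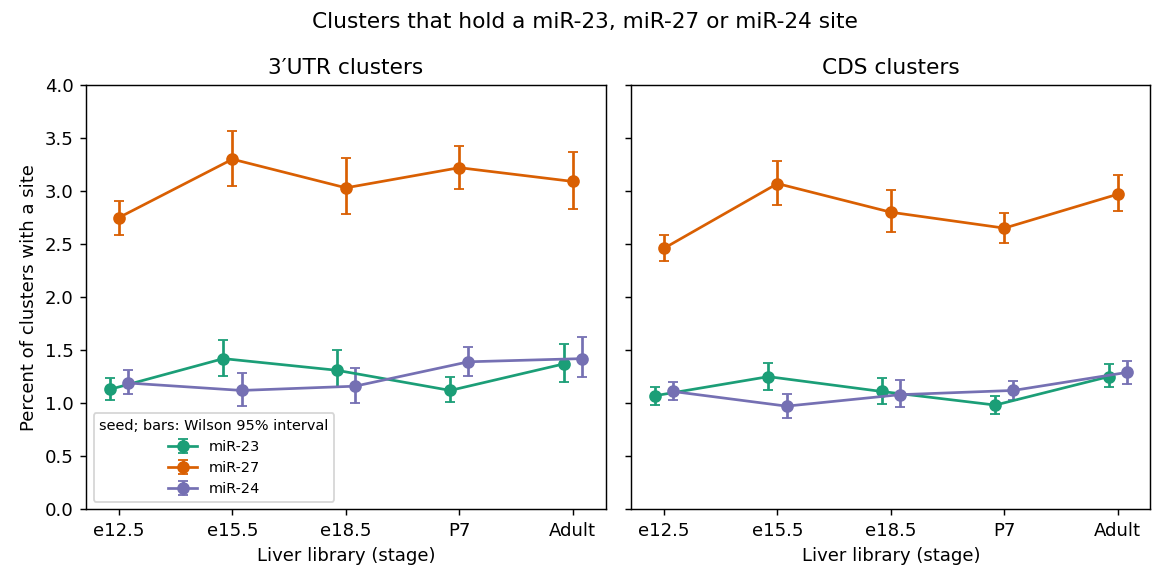
Percent of 3′UTR clusters (left) and CDS clusters (right) with a site of the miR-23, miR-27 or miR-24 seed in the 5 libraries, with Wilson 95% intervals that cover counting error only. MiR-27 lay between 2.46% and 3.30% and the other seeds between 0.972% and 1.42%.

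Seed families with at least 50 clusters in both libraries were compared by two-sided Fisher's exact tests with Benjamini-Hochberg adjustment over all families, a test of 2 libraries and not of the stages. Between the e12.5 and adult 3′UTR clusters the log2 odds ratio was 0.28 ± 0.12 (SE) for miR-23, 0.17 ± 0.08 for miR-27 and 0.25 ± 0.12 for miR-24, and none passed (Fisher's exact test, adjusted p = 0.0518, 0.0682 and 0.0682), while 42.0% of the 307 families tested did. In the CDS all 3 seeds had larger shares in the adult library, by 0.23 ± 0.09, 0.28 ± 0.06 and 0.21 ± 0.09 (Fisher's exact test, adjusted p = 0.0183, 6.48e-06 and 0.0327), where 50.8% of the 378 families tested passed and 29.1% were larger in adult, and the median of all families was 0.00. Both libraries of the next comparison were made with the same antibodies. Between e12.5 and e18.5, miR-27 in the CDS passed with a larger share at e18.5, by 0.19 ± 0.07 (Fisher's exact test, adjusted p = 0.0121), as did 7.13% of 421 families, and miR-23 and miR-24 did not (0.05 ± 0.10 and -0.04 ± 0.10). In 3′UTR clusters none of the 3 seeds passed between e12.5 and e18.5, where 34.8% of 351 families did and 7.41% were larger at e18.5. Between P7 and adult liver, again with the same antibodies, all 3 seeds had larger CDS shares in adult liver, by 0.36 ± 0.09 for miR-23, 0.17 ± 0.06 for miR-27 and 0.21 ± 0.09 for miR-24 (Fisher's exact test, adjusted p = 4.67e-04, 0.00961 and 0.0464). This was also so for 41.1% of 401 families, whose median was 0.24, while 3.74% were smaller. In 3′UTR clusters none of the 3 seeds passed between P7 and adult liver, where 15.9% of 327 families did and 3.36% were smaller in adult liver.

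These calls depended on what was counted. With sites of at least 7 matched bases only, the 3′UTR shares of miR-23 and miR-27 passed between e12.5 and adult liver (0.37 and 0.35) and between e12.5 and e18.5 (0.53 and 0.40), all larger in the later library. With genes counted in place of clusters, the 3′UTR direction between e12.5 and adult liver turned, to log2 odds ratios of -0.46 for miR-23, -0.56 for miR-27 and -0.52 for miR-24, and all 3 passed as smaller in adult liver (Fisher's exact test, adjusted p = 2.96e-04, 8.01e-11 and 2.35e-05). Between e12.5 and e18.5 they were -0.58, -0.62 and -0.84 and also passed (adjusted p = 3.74e-06, 7.63e-13 and 3.72e-11, Fisher's exact test). Between P7 and adult liver, miR-27 (-0.48) and miR-24 (-0.35) passed as smaller in adult liver (Fisher's exact test, adjusted p = 4.26e-07 and 0.0191) and miR-23 (-0.10) did not. No CDS call above held with genes counted. Between e12.5 and adult liver the CDS values were then -0.12, -0.09 and -0.16, and none passed. The miR-27 value between e12.5 and e18.5 turned to -0.60 and passed in that direction (Fisher's exact test, adjusted p = 6.76e-17). With genes counted, miR-23 (-0.74) and miR-24 (-0.80) also passed there as smaller at e18.5 (Fisher's exact test, adjusted p = 3.04e-12 and 1.96e-14). Between P7 and adult liver the CDS values were 0.20, 0.00 and 0.03, and none passed. The library with more clusters also had more of them per gene, with 4.69 3′UTR clusters per gene at e12.5 and 2.77 in adult liver.

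Longer matches were common among the member sites. Of the positions over all libraries, 16.7% were 8mers for miR-23 (Wilson 95% interval 15.6 to 17.9), and 12.4% for miR-27 (11.8 to 13.1). For miR-24 the share lay between 14.7% and 16.8% by library. Over all seeds the share in a library was between 7.23% and 7.69%. Among families with at least 200 sites, the 8mer share of miR-23 ranked 20 of 620 at e12.5, 31 of 390 at e15.5, 3 of 393 at e18.5, 6 of 595 at P7 and 7 of 422 in adult liver, and that of miR-27 68, 22, 10, 19 and 34 in the same order. MiR-24 stood out for 7mer-m8 sites as well, with 34.4% of its positions, against medians of 21.0% to 21.8% over families.

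**Figure D3:**
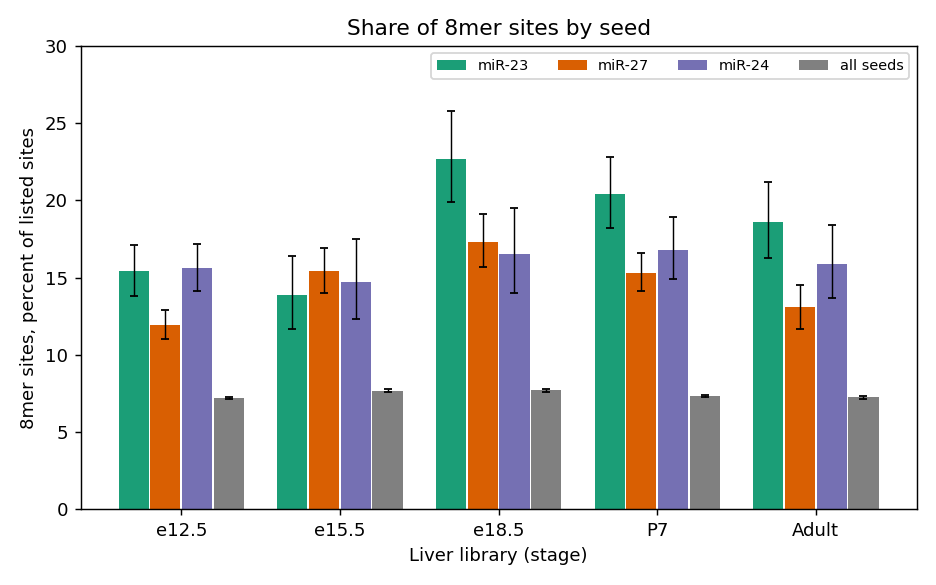
Percent of listed sites that are 8mers, for miR-23, miR-27, miR-24 and all seeds in each of the 5 libraries, with Wilson 95% intervals. The member seeds lay between 11.9% and 22.7% and all seeds between 7.23% and 7.69%.

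The conservation score of a site, which runs from 0 to 1, was at least 0.9 in 60.5%, 65.9%, 63.8%, 61.0% and 54.5% of the miR-23 8mers in 3′UTRs, in stage order. The values for miR-27 were 58.5%, 78.2%, 60.6%, 60.1% and 59.7%. For miR-24 they were 34.4%, 32.1%, 38.2%, 38.5% and 28.9%, against 36.2% to 45.2% over the 8mers of all seeds. The miR-23 and miR-27 8mers were thus above the all-seed value in each library and those of miR-24 below it, except at P7, where miR-24 had 38.5% and all seeds 36.2%. MiR-23 6mers in 3′UTRs had such a score in 28.1% of cases at e12.5 and 29.2% in adult liver.

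A listed site does not show which miRNA was bound, and 2 other seeds overlap that of miR-27.
miR-673-5p: cTCACAGCtctggtccttggag
miR-128-3p: tCACAGTGaaccggtctcttt
The seed of miR-673-5p shares the run TCACAG with miR-27, so that a miR-27 6mer is also a miR-673 6mer, and bases 2 to 7 of miR-128-3p repeat the end of the miR-27 seed. MiR-673-5p was listed over 96.9% of the e12.5 and 97.6% of the adult miR-27 3′UTR sites, and miR-128-3p over 30.4% and 30.3% of them. MiR-673-5p took up 0.379% of all e12.5 miRNA reads, above either miR-27 form, and then 0.137%, 0.113%, 0.118% and 3.10e-04% in stage order. MiR-128-3p held between 0.00246% and 0.0163%. For miR-23, the family that overlapped most sites was miR-342-3p, over 19.9% of the 3′UTR sites at e12.5 and 15.6% in adult liver. For miR-24 it was miR-7070-3p at e12.5 (33.1%), which held 1.57e-04% of the miRNA reads. A 3′UTR cluster with a miR-27 site held a median of 6 to 7 seed families, and miR-27 was the single family in 0 to 3 clusters of a library.

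In most clusters 1 read number was shared by all miRNAs with a site in it. In 6.98% to 11.3% of the clusters of a library, the read number differed between entries. The sites described next are those listed in most libraries, up to 8 genes for each seed, ordered by scaled reads. Each sequence is the mRNA strand from the tables, 5′ to 3′, ending at the base opposite miRNA base 1, with the bases paired to the seed, and an A opposite base 1, in capitals. Coordinates are the intervals of the tables on GRCm38, which leave out that last base. Read numbers are printed as deposited, not scaled to the library. The log2 values compare adult liver with e12.5 after scaling to the summed cluster reads, and a change was called at 4-fold. The read column of the e12.5 table carries a different name, and it was taken as the same measure.

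MiR-23 sites in the 3′UTRs of Lamp2, Acat1 and Gpr146 rose from e12.5 to adult liver and those of Slc16a6 and Setd1b fell. The 4 sites shown are an 8mer in the mRNA of a secreted ligand, an 8mer in a partner of Ago, and the sites with the most reads at either end of development.
Cxcl12, 8mer, chr6:117181193-117181199 (+): ctgtctcccagatAATGTGAA
Tnrc6a, 8mer, chr7:123193128-123193134 (+): aggccaatattatAATGTGAA
Lamp2, 6mer, chrX:38421695-38421700 (-): taacactaatccacATGTGAt
Slc16a6, 6mer, chr11:109451138-109451143 (-): aggtttacagatgtATGTGAc

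Lamp2, a lysosomal membrane protein, had 175, 285, 312, 593 and 7423 reads in stage order, a log2 difference of 6.26. Its adult cluster held 20 seed families, among them an 8mer of miR-194-5p, the most abundant of the others. Slc16a6, a monocarboxylate transporter family member, had 3445, 331, 803, 25 and 26 reads, a log2 difference of -6.20. At e12.5 its cluster held 25 families. Both of these large changes thus lay at 6mers in clusters with many other seeds.

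Cxcl12, the chemokine that binds Cxcr4, had 238, 129, 328, 668 and 411 reads at an 8mer with a conservation score of 1.0, and its log2 difference of 1.64 stayed under 4-fold. Tnrc6a, a GW182 protein that binds Ago and carries out silencing, had 247, 216, 43, 162 and 405 reads at another 8mer with a score of 1.0, with a log2 difference of 1.56. Its adult cluster held 3 families, the fewest among the miR-23 sites described here. Acat1, a mitochondrial acetyl-CoA acetyltransferase, had 46, 61, 88, 213 and 244 reads (log2 3.26), more after birth than at any embryonic stage. Setd1b, a histone H3 lysine 4 methyltransferase, had 207, 107, 131, 27 and 11 reads (log2 -3.38), fewer after birth than at any embryonic stage. Snx5, a sorting nexin, had 129, 90, 126, 42 and 38 reads (log2 -0.91). Gpr146, a G protein-coupled receptor, had 19, 46, 8, 22 and 70 reads (log2 2.73), and its adult cluster also held a site of miR-27b-3p.

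MiR-27 sites in Pfn1, Tnfaip2 and Serinc3 fell, and those in Suclg1, Atp5g3, Arl6ip1 and Tmbim6 stayed under 4-fold. The sequences shown are 2 conserved 8mers and the 7mer-m8 with the largest fall.
Suclg1, 8mer, chr6:73260580-73260586 (+): gcccgtctttaatACTGTGAA
Tmbim6, 8mer, chr15:99409962-99409968 (+): ttctctaactcatACTGTGAA
Tnfaip2, 7mer-m8, chr12:111450752-111450758 (+): ggaaatcatcactACTGTGAg

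Tnfaip2, a gene induced by tumor necrosis factor, had 3570, 618, 921, 117 and 19 reads in stage order (log2 -6.70). The e12.5 cluster of Tnfaip2 also held a 6mer of miR-142a-3p, which had 32.2% of the miRNA reads in that library. Suclg1, a subunit of succinyl-CoA ligase in the citric acid cycle, had 737, 394, 656, 345 and 838 reads (log2 1.04), and its adult cluster also held a 7mer-A1 of miR-122-5p. Tmbim6, an endoplasmic reticulum protein that counters cell death, had 350, 210, 271, 795 and 383 reads (log2 0.98).

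Pfn1, the actin-binding profilin, had 1961, 1041, 2005, 2220 and 172 reads (log2 -2.66), and its adult value was the lowest. Serinc3, a membrane protein, had 236, 190, 234, 226 and 20 reads (log2 -2.71), between 190 and 236 until P7 and low in adult liver. Atp5g3, a subunit of the mitochondrial ATP synthase, had 376, 426, 251, 534 and 179 reads (log2 -0.22). Its P7 cluster held 3 families, with miR-673-5p as the most abundant of the others. Arl6ip1, a shaping protein of the endoplasmic reticulum, had 368, 370, 192, 256 and 450 reads (log2 1.14).

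MiR-24 sites fell in Dnajb12 and Sec61g and rose in Insig1, and the sites of Afp and Ncoa4 were listed in the first 4 libraries and not in adult liver. The sequences are the site with most reads over the 5 libraries, the only 8mer of the 8, and the 6mer that rose.
Gigyf1, 7mer-m8, chr5:137527717-137527723 (+): aatgtttacaagccCTGAGCCc
Dnajb12, 8mer, chr10:59899187-59899193 (+): tgtccctggaggggCTGAGCCA
Insig1, 6mer, chr5:28077565-28077570 (+): agtcataaTGAGCCg

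Gigyf1, an adaptor of translational repression and insulin-like growth factor signalling, had 3234, 541, 2514, 2747 and 861 reads in stage order (log2 -1.06). Dnajb12, a chaperone of the endoplasmic reticulum, had 973, 282, 662, 535 and 113 reads (log2 -2.26). Insig1, which holds the SREBP-SCAP complex in the endoplasmic reticulum and so restrains cholesterol synthesis, had 119, 41, 952, 400 and 410 reads (log2 2.64). Its e18.5 cluster also held a 7mer-A1 of miR-122-5p, which had 9.20% of the miRNA reads there. Afp, the fetal counterpart of albumin, had 2328, 1165, 1855 and 1560 reads from e12.5 to P7 at a 6mer with a conservation score of 0.003, and the same cluster held a miR-23 6mer.

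Ncoa4, the receptor for ferritin breakdown, had 579, 283, 210 and 41 reads from e12.5 to P7. Pkdcc, a secreted kinase, had 124, 227, 312, 106 and 35 reads (log2 -0.97), and P4hb, a protein disulfide isomerase, had 147, 223, 24, 216 and 34 reads (log2 -1.26). Sec61g, a subunit of the protein translocation channel, had 49, 9, 13, 7 and 6 reads (log2 -2.18), close to the lowest number the tables list, which is 5.

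**Figure D4:**
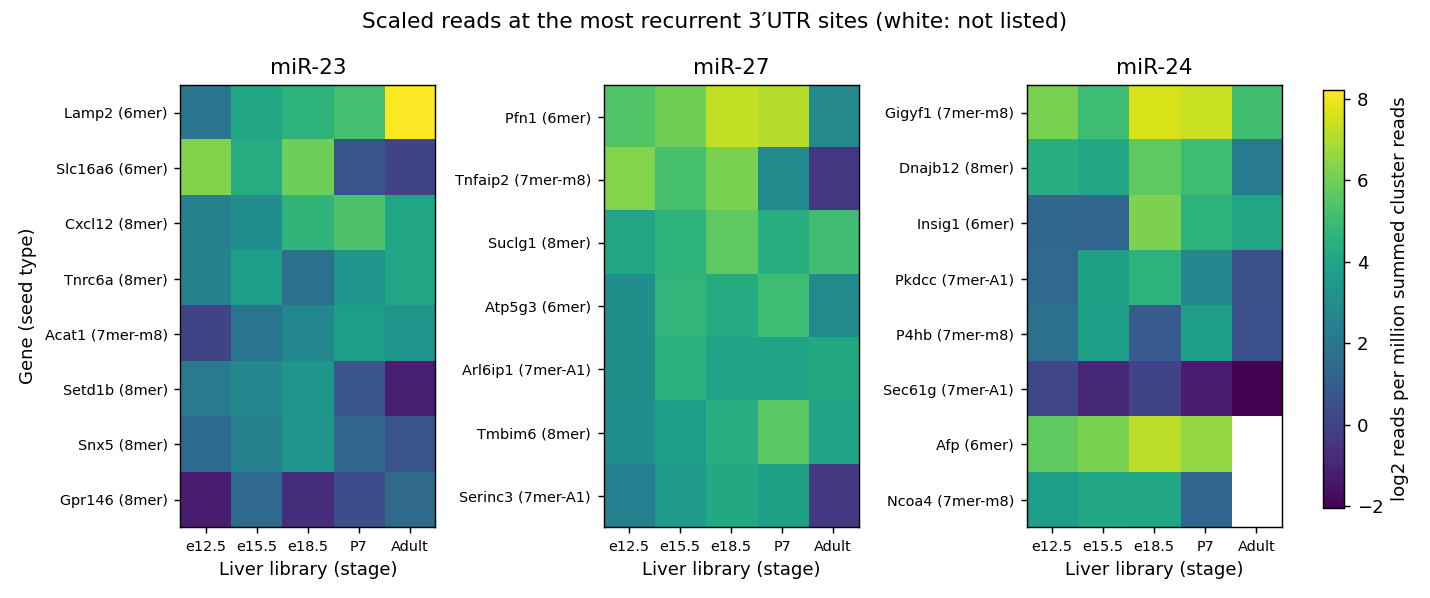
Scaled reads (log2 of reads scaled to 1e6 summed cluster reads, colour) at the most recurrent 3′UTR sites of each seed (up to 8) in the 5 libraries, with white where a site was not listed. Lamp2 was brightest in adult liver, Slc16a6 and Tnfaip2 were dark there, and Afp and Ncoa4 were not listed in the adult library.

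The CDS sites described here, among the most recurrent of each seed, lay in mRNAs of alpha globin, of lipoprotein assembly and of more general functions. The miR-27 6mer of the alpha globin genes had 197230, 87449, 81244, 20056 and 3454 reads in Hba-a2 (log2 -4.99), and an 8mer of miR-24 in the same coding sequence had 10692, 4686, 2321, 2587 and 125 reads (log2 -5.57). Hba-a1 and Hba-a2 are near-identical copies, and their reads could have been split or counted in both. The erythroid markers fell between the same libraries, as given above. A miR-23 6mer in the coding sequence of Apob, the structural protein of lipoproteins, had 17, 19, 429, 8504 and 790 reads (log2 6.39). Other CDS sites lay in Cltc, the clathrin heavy chain, where a conserved miR-27 8mer had 6720, 3153, 1021, 2325 and 1439 reads (log2 -1.37), and in Hnrnpa2b1, an RNA-binding protein, where a miR-23 6mer had 1281, 847, 194, 460 and 56 reads (log2 -3.67). A miR-23 8mer in Ppp1r15b, which directs dephosphorylation of the translation factor eIF2 alpha, had 322, 306, 624, 269 and 147 reads (log2 -0.28).

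Over all 3′UTR sites of any seed listed in both the e12.5 and adult libraries, 17.7% of 12504 rose at least 4-fold and 12.8% fell, with a median log2 difference of 0.23. Of 47 miR-23 sites, 10 rose (21.3%) and 6 fell (12.8%), with a median of 0.10. Of 148 miR-27 sites, 23 rose and 13 fell (8.78%), with a median of -0.02. Of 54 miR-24 sites, 8 rose (14.8%) and 7 fell, with a median of -0.92. The shares past 4-fold were near those of all seeds, and the miR-24 median was the lowest of the 3. At 2-fold, 12 of the miR-24 sites rose (22.2%) and 24 fell (44.4%), against 33.7% and 26.5% of the sites of all seeds. The split between rises and falls depended on the scaling. Relative to the reads of clusters outside miRNA hairpins, every log2 value was higher by 1.08, the miR-23 sites split into 18 rises and 3 falls, the miR-27 sites into 46 and 2 and the miR-24 sites into 12 and 1, and 35.6% of all sites rose and 4.97% fell. MiRNA hairpins held 50.6% of the summed cluster reads at e12.5 and 76.7% in adult liver.

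Among sites with at least 7 matched bases, the largest rises and falls of each seed lay in genes of several functions. For miR-23, a site in Stat2, a transducer of interferon signals, had 7, 13, no listing, 59 and 68 reads from e12.5 to adult (log2 4.13), and one in Slmap, a membrane-anchored scaffold protein, 15, 6, no listing, 64 and 59 (log2 2.83). Hexim1, an inhibitor of transcription elongation, fell from 148 reads at e12.5 to 15 in adult liver (log2 -2.45). Scaf4, an RNA-binding protein, fell from 58 to 8 (log2 -2.01), just past the limit. For miR-27, Gcnt2, a branching enzyme of cell surface glycans, rose from 12 to 181 reads (log2 4.77). Fads1, the delta-5 fatty acid desaturase, rose from 6 to 45 and was listed in these 2 libraries alone (log2 3.76). The miR-27 site in Fasn, the fatty acid synthase, had 238, 23, 262, 13 and 17 reads (log2 -2.96), high at e12.5 and e18.5 and low in the other libraries. Paqr9, a member of the progestin and adiponectin receptor family, had 73, 276, 27, 71 and 5 reads (log2 -3.02).

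For miR-24, a site in Acadsb, an acyl-CoA dehydrogenase of isoleucine breakdown, rose from 19 to 79 reads (log2 2.91). Ets1, a transcription factor of blood and vessel cells, rose from 31 to 126 (log2 2.87) at a 7mer-m8 with a conservation score of 1.0, and its adult cluster held 3 families. Pea15a, a binding partner of ERK, rose from 27 to 98 (log2 2.71). Sub1, a transcription coactivator, fell from 125 to 7 (log2 -3.31), Pex19, a carrier of peroxisomal membrane proteins, from 145 to 11 (log2 -2.87), and Psme3, an activator of the proteasome, from 71 to 6 (log2 -2.71). With 1.08 added for the scaling outside hairpins, the falls of Hexim1, Scaf4, Paqr9, Fasn, Pex19 and Psme3 named here would be under 4-fold, as would those of Pfn1, Serinc3, Dnajb12, Sec61g and the Gmfb site described next, and those of Slc16a6, Setd1b, Tnfaip2 and Sub1 would remain past it. In the other direction, Cxcl12, Tnrc6a, Suclg1, Arl6ip1 and Tmbim6, under 4-fold above, would pass it as rises.

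A 3′UTR site was listed in 913 genes for miR-23, 1891 for miR-27 and 946 for miR-24 over all libraries, of 11065 genes with a 3′UTR site of any miRNA. In all 5 libraries a site was listed in 14, 54 and 7 genes. In stage order 957, 556, 462, 878 and 460 genes had a miR-27 site, the same order as that of the 39452, 18219, 16150, 29603 and 15914 3′UTR clusters with any site. In the CDS the members had sites in 1310, 2637 and 1412 genes. MiR-23 and miR-27 shared 308 genes with 3′UTR sites of both, which are 33.7% of the miR-23 genes and 16.3% of the miR-27 genes. MiR-27 and miR-24 also shared 308, or 16.3% and 32.6%, and miR-23 and miR-24 shared 125, or 13.7% and 13.2%. Over all 11065 genes, 8.25% had a miR-23 site, 17.1% a miR-27 site and 8.55% a miR-24 site. Overlaps between other seed families were not counted, so these overlaps are descriptions. Sites of 2 seeds in 1 cluster were rare, at 48 of 1953 3′UTR clusters with a member site at e12.5 and 26 of 908 in adult liver.

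All 3 seeds had 3′UTR sites in 64 of 3073 genes, and those with the most combinations of seed and library were Ncoa4, Paqr9, Azin1, Tgoln1 and Trak2. Gmfb, with 9 combinations, was tied with Tet3, Il6ra, Fam46c, Chd2 and Flna and was taken as the 6th for its summed scaled reads. For Ncoa4 and Trak2 the most recurrent site of each seed is shown, since these 3 sites lie within 347 bases in Ncoa4 and within 134 bases in Trak2, while over all positions the genes had 6 and 5 sites.
Ncoa4 miR-23 7mer-m8, chr14:32176260-32176266 (+): agagagccctacAATGTGAg
Ncoa4 miR-27 7mer-m8, chr14:32176519-32176525 (+): gtgtgtgatgacaACTGTGAg
Ncoa4 miR-24 7mer-m8, chr14:32176600-32176606 (+): tatggaacctaaatCTGAGCCt
Trak2 miR-23 7mer-m8, chr1:58903192-58903198 (-): aaattctattgaAATGTGAc
Trak2 miR-27 7mer-A1, chr1:58903084-58903090 (-): ggagagttggcgcCTGTGAA
Trak2 miR-24 8mer, chr1:58903065-58903071 (-): gaagttgtctgttaCTGAGCCA

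The Ncoa4 miR-27 site had 360, 329, 228, 106 and 124 reads in stage order (log2 -0.69), with a conservation score of 0.999. Its miR-23 site, with 28 e12.5 reads, 45 e15.5 reads and 6 adult reads, was not listed at e18.5 and P7. Over all positions, Ncoa4 had miR-23 and miR-27 sites in all 5 libraries and miR-24 sites in 4. In Trak2, which links mitochondria to kinesin motors, the miR-24 8mer had 103, 28 and 99 reads at e12.5, e15.5 and P7, and the miR-27 site 28, 28 and 91 in the same libraries, with no listing at e18.5 and in adult liver. The Trak2 miR-23 site had 33 reads at e12.5, 22 at P7 and 28 in adult liver. Azin1, an antizyme inhibitor of polyamine synthesis, had a miR-24 6mer with 445 reads at e12.5, 66 reads at e18.5, 141 reads at P7 and 109 adult reads. Gmfb, a regulator of actin branching, had a miR-27 6mer with 177, 54, 189, 83 and 15 reads (log2 -2.71). Tgoln1, a trans-Golgi protein, had a miR-27 7mer-m8 with 84 reads at e15.5, 57 at P7 and 26 in adult liver.

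Lists of genes in pathways linked to these miRNAs were counted for 3′UTR sites, beside the share over all 11065 genes with any 3′UTR site, which was 8.25% for miR-23, 17.1% for miR-27, 8.55% for miR-24 and 27.8% for any of the 3. The lists partly name genes known as targets of these miRNAs, so their counts are descriptions. In lipid and cholesterol metabolism, 21 of 28 genes had a site of at least 1 seed in all, with 6 for miR-23, 14 for miR-27 and 9 for miR-24. Pparg, the nuclear receptor of fat storage, had a conserved miR-27 8mer with 11 e12.5 reads, 35 e15.5 reads and 5 P7 reads, all low. Abca1, the exporter of cellular cholesterol, had a conserved miR-27 8mer with 83 reads at e18.5 and 34 at P7, and a conserved miR-23 7mer-A1 with 6 reads at e18.5, 59 reads at P7 and 25 adult reads. Insig1 and Apob had 3′UTR sites of miR-23 and miR-24, and Insig1 of miR-27 too. Nr1h3, Scap, Abcg1, Acaca, Dgat1 and Cd36 had none.

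In glucose and glutamine metabolism, 7 of 13 genes had a site of the 3 seeds (53.8%), with 3 for miR-23, 4 for miR-27 and 0 for miR-24. A miR-23 7mer-m8 in Fbp1, the fructose-bisphosphatase of gluconeogenesis, had 177 reads at e18.5, 86 reads at P7 and 193 adult reads and was not listed earlier. Gls2, the liver glutaminase, had a miR-27 6mer with 11 reads at P7 and 142 in adult liver. Foxo1, a transcription factor under insulin control, had a conserved miR-27 7mer-m8 with 12 reads at P7 and 16 in adult liver.

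Among 14 genes of vessel growth, 8 had a site (57.1%), of which 5 were for miR-27. Conserved miR-27 8mers were listed in Dll4, a Notch ligand of vessel sprouts, with 10 reads at e12.5 and 36 in adult liver, in Cdh5, the endothelial cadherin, with 17 reads at P7, and in Sema6a, a guidance factor, with 7 reads at e15.5 and 55 at P7. Among 21 genes of TGF-beta and BMP signalling, 7 had a site (33.3%), near the share of all genes. The receptor gene Tgfbr1 had a conserved miR-27 7mer-A1 with 12 reads at P7 and 34 in adult liver, Tgfbr3 a conserved miR-27 8mer with 36 reads at P7, and Acvr1b, an activin receptor, a conserved miR-24 7mer-m8 with 18 reads at e12.5. Smad7, an inhibitor of the pathway, had a miR-24 6mer with 39 reads at e12.5.

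Among 20 genes of cell cycle and DNA repair, 7 had a site (35.0%), with 6 for miR-24, 3 for miR-27 and 1 for miR-23. A miR-24 7mer-m8 in H2afx, the histone variant that marks DNA breaks, had 130, 72, 87 and 49 reads from e12.5 to P7 and was not listed in adult liver. E2f2, a transcription factor of the S phase, had sites of all 3 seeds, with 192 reads at a miR-23 6mer and 42 at a miR-24 7mer-m8 at e12.5, and none later than e15.5. Rrm2, a subunit of ribonucleotide reductase, had a miR-24 6mer with 52 e12.5 reads and 10 e15.5 reads, and E2f3 one with 39 and 13 in the same libraries. None of the 7 cell cycle genes had a 3′UTR site of these seeds in the adult library, which listed such a site in 803 of the 3073 genes that had one in any library, so nothing particular to the list is read from this. Levels of the mRNAs were not analysed here.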

How the data were processed

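Ago-bound RNA of mouse liver was measured at 5 stages, with 1 table of miRNA-target interactions per stage. Per the methods, the authors preprocessed reads with the FASTX-Toolkit, used Bowtie for mapping to the mm10 genome and miRBase precursors, grouped overlapping reads into clusters and searched these for seed matches, and the submitters' processing notes also name mm9. Versions of these 2 tools and any pooling of replicates are not given in the sources used here, although 2 biological replicates are named for Ago2. The deposited signal is the highest read number, or height, of the cluster that holds a site, not scaled, with 5 as its lowest value. Entries of 1 cluster carried several read numbers in 6.98% to 11.3% of the clusters of a library. The conservation score and the folding energy score are as deposited, with no method given. The whole number in each interaction name was taken as the miRNA read number, which the tables do not explain.

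Entries of the members were collapsed to 1 site per position, seed and strand, and all 17779 positions checked matched GRCm38. The embryonic tables each held 2 lists, which the labels do not explain, so their miRNA reads were added and overlapping clusters joined. At a position in both lists the higher site read number was kept and the 2 were not added. For a miRNA with several gene copies the highest number was used. The libraries held 25546696, 10100639, 7781484, 12048589 and 22917686 miRNA reads and 208193, 81121, 76948, 124781 and 81194 clusters in stage order. Intervals cover counting error only, since PCR reads are not independent molecules. Shares of clusters were compared for seed families with at least 50 clusters in both libraries, and scaled reads were called at 4-fold. The comparison was tested on simulated data: of 50 families changed by 0.6 on the log2 scale it recovered 44 in the 3′UTR and 46 in the CDS (e12.5 against adult, 307 and 378 families), and of 50 changed by 0.3 it recovered 13 and 19. The simulated counts were drawn independently for each family, with no spread between libraries, so this tests the method under its own assumptions only. Named sites were, for each seed, the 8 most recurrent 3′UTR sites, 3 CDS sites and the 3 largest rises and falls, then the 6 genes with all 3 seeds in most libraries and the members of 5 gene lists. Values of some of these genes are not reported here. The members and lists were chosen with earlier results of these data known. Alternatives covered seed length, read minimum, single lists, genes in place of clusters and the scaling. Python 3.11.15, numpy 2.4.6, pandas 2.3.3, scipy 1.17.1, matplotlib 3.10.9 and pyfaidx 0.9.0.4 were used.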

Additional observations from a re-analysis of the deposited data

How the results depend on the processing

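Of 161 recomputed values, 76 were labelled the same. These kept their direction and side of the threshold, moved within their spread or, for counts, within a set ratio. Without turning in direction, 9 lost a call and 10 gained one. A further 45 moved, and 21 turned in direction, some of which also lost or gained a call. The cause was not tested. No paired analysis was possible because each stage had 1 table. The lowest listed read number was 5, so the tables give no value below it.

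With at least 7 matched bases, the 3′UTR log2 odds ratio between e12.5 and adult liver was 0.37 for miR-23 and 0.35 for miR-27, and between e12.5 and e18.5 it was 0.53 and 0.40. In the CDS the miR-24 values were then 0.19 (e12.5 against adult, call lost), 0.02 (e12.5 against e18.5) and 0.21 (P7 against adult, call lost). With at least 10 reads per cluster, the 3′UTR values between e12.5 and adult liver were 0.28 for miR-27 and 0.33 for miR-24, both now called, and that of miR-24 between e12.5 and e18.5 was 0.01. The CDS values between P7 and adult liver were 0.10 for miR-27 and 0.17 for miR-24, no longer called. With the second lists alone, the 3′UTR values between e12.5 and e18.5 were 0.31 for miR-27 (now called) and 0.02 for miR-24. The CDS value of miR-23 was 0.19 between e12.5 and adult liver (call lost) and -0.03 between e12.5 and e18.5, where that of miR-24 was 0.07. With the first lists alone, the CDS value of miR-24 between e12.5 and adult liver was 0.13 and that of miR-27 between e12.5 and e18.5 was 0.20, neither called. For these settings the share of all families called was not recorded, so no call gained or lost is read as particular to the members.

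With genes counted in place of clusters, the 3′UTR values for miR-23, miR-27 and miR-24 were -0.46, -0.56 and -0.52 between e12.5 and adult liver, -0.58, -0.62 and -0.84 between e12.5 and e18.5, and -0.10, -0.48 and -0.35 between P7 and adult liver. In the CDS they were -0.12, -0.09 and -0.16, then -0.74, -0.60 and -0.80, then 0.20, 0.00 and 0.03. With genes counted, too, the share of all families called was not recorded, so these calls are not read as particular to the members.

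The log2 difference in miRNA share between e12.5 and adult liver, for miR-23a-3p, miR-23b-3p, miR-27a-3p, miR-27b-3p and miR-24-3p, was -0.07, 1.23, 1.45, 2.47 and -0.39 with gene copies summed, and -0.20, 1.26, 0.95, 2.47 and -0.27 with the first lists. It was 0.54, 1.78, 2.28, 3.03 and 0.12 with the second lists, and 1.34, 2.65, 2.87, 3.89 and 1.03 relative to the total reads given by the study. Without the 3 blood miRNAs, chosen after seeing the data, it was -0.91, 0.40, 0.62, 1.64 and -1.23.

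With at least 7 matched bases, 594 genes had a miR-23 site and 1116 a miR-27 site in the 3′UTR, 249 had more than 1 seed and 23 all 3. The first lists gave 599 miR-23 genes. At 2-fold, 17 miR-23 sites rose and 13 fell, 41 miR-27 sites rose and 37 fell, and 12 miR-24 sites rose and 24 fell, against 33.7% and 26.5% of the sites of all seeds. With at least 10 reads in both libraries, 3 miR-23 and 3 miR-24 sites fell, and relative to the study's totals 4 miR-24 sites fell. Relative to clusters outside miRNA hairpins, also chosen after seeing the data, 18 miR-23 and 46 miR-27 sites rose, and 3, 2 and 1 sites of miR-23, miR-27 and miR-24 fell. In clusters with at least 10 reads the 3′UTR held 27.59%, 26.26% and 26.30% of the sites of the 3 seeds. With the first lists, 18.49% of miR-23 sites and 13.23% of miR-27 sites were 8mers.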

Other observations

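Sites in 5′UTRs made up 2.32% of the member sites, and 7 genes, chosen after their values were seen, had a 5′UTR site at 1 position in all 5 libraries. The only one for miR-24 was a conserved 7mer-m8 in Cited2, a coregulator of transcription, with 273, 55, 71, 66 and 36 reads in stage order. The others were miR-27 sites. An 8mer in Fam222b with a conservation score of 1.0 had 50, 168, 74, 143 and 101 reads, and a 7mer-A1 in Serpind1, the thrombin inhibitor heparin cofactor II, had 31, 138, 129, 95 and 58. Ubb, a polyubiquitin gene, had 348, 467, 96, 126 and 14 reads at a 6mer, and Ddi2, a protease, 234, 22, 89, 111 and 25 at a 7mer-A1. Sh3d19 had 34, 57, 133, 10 and 67 reads and Kdm5a, a histone demethylase, 10, 7, 9, 17 and 43. These values are descriptions, and no test of the 5′UTR sites was made.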
